A study of Equus caballus with 12 samples.

Results

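The NF-κB feedback regulators TNFAIP3, TNIP3, NFKBIZ, ZC3H12A, BCL3, REL, MAP3K8 and IER3 were followed in horse mesenchymal stem cells (MSCs), plastic-adherent stromal cells with the capacity to become bone, cartilage or fat cells. They were taken by symbol from a table of 1341 genes that the authors had called different between cultures, and each of the 8 had 1 row. The licensed cultures were bone marrow MSCs of 6 horses grown for 72 hours with the recombinant human cytokines IL-1β, at 2 ng/ml, and TGF-β2, at 1 ng/ml. The naive cultures were MSCs of the same 6 horses grown for 72 hours in the same standard medium, low-glucose DMEM with fetal bovine serum and antibiotics, without the cytokines. Each culture gave 1 bulk RNA-seq library, so there were 6 licensed and 6 naive libraries paired by horse. No library had 1 cytokine alone, so their shares in a result cannot be told apart. The sources used here state neither breed, age nor sex of the horses.

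NF-κB is a family of transcription factors that stays in the cytoplasm bound to IκB proteins until a receptor such as that of IL-1 activates the kinases that mark IκB for breakdown. Among the genes that NF-κB then switches on are its own regulators, some of which end the signal and some of which steer or extend it. In stromal cells this circuit governs how much cytokine, chemokine and prostaglandin is made after an inflammatory stimulus. The roles given for each gene come from work in human and mouse cells.

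Values are normalized counts, that is, reads per gene divided by 1 size factor per library, as the authors deposited them. The listed genes held 2718393 to 3424328 reads per licensed library and 1672419 to 1844648 per naive library. Depth of the whole libraries is unknown. Both libraries of horse 1 were high in these genes, the naive one far more than any other naive library. Results that rest on them are given with and without that horse. Of 11 MSC marker genes 1, THY1, was in the table, at 298 to 4743 normalized counts in licensed and 4625 to 31119 in naive cultures. None of 11 myeloid, 8 lymphoid and 4 erythroid marker genes was in the table by symbol. Another 208 listed genes had an Ensembl ID only and could not be matched to markers. Of 6 endothelial marker genes 1, ERG, was listed, at 188 to 313 normalized counts in licensed and 57.2 to 145 in naive cultures. Markers that are not in the table are not analysed here, so the labelled cell type could not be checked further, and the part of any cell type in the results was not tested. In such bulk samples, fewer cells of a type and less RNA per cell cannot be told apart.

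All 8 regulators were listed by the authors as higher in licensed MSCs, as were 670 of the 1341 listed genes. The table holds only genes called by the authors, and the 670 make up 5.08% of the 13183 genes that the adjusted p-values imply were tested. Since the table itself chose these genes on this contrast, their shared direction is a description and supports nothing. Their median deposited log2 fold change was 2.49, beside 1.60 for all 670 genes listed as higher. Each of the 8 was higher in the licensed library of every horse, as were 94.3% of the genes listed as higher. For 6 of the 8 the licensed and naive values did not overlap, beside 64.9% of the genes listed as higher. NFKBIZ and MAP3K8 were the ones that overlapped.

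**Figure D1:**
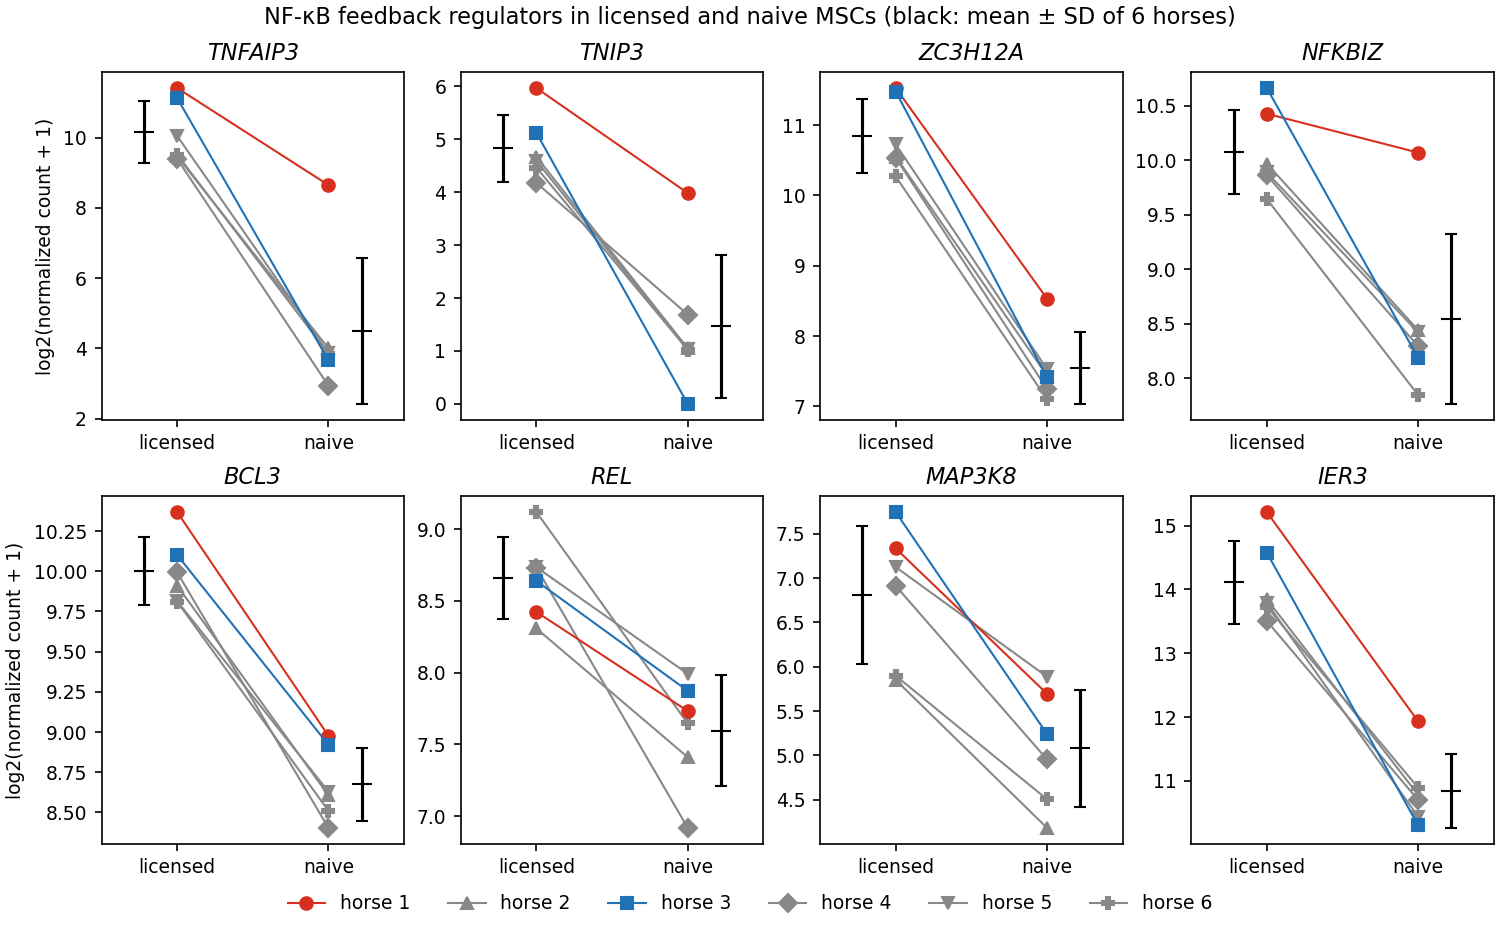
Level of each regulator in 6 licensed and 6 naive libraries, as log2(normalized count + 1), with a line joining the libraries of 1 horse and black marks for mean ± SD (n = 6). Every line falls toward naive, and in naive cultures horse 1 (red) is the highest for TNFAIP3, TNIP3, ZC3H12A, NFKBIZ, BCL3 and IER3 but not for REL and MAP3K8.

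TNFAIP3 and TNIP3 act at the ubiquitin step of the pathway. TNFAIP3 (ENSECAG00000009626) encodes a ubiquitin-editing enzyme that takes apart the signalling complexes below the IL-1 and TNF receptors. Its licensed libraries had 671, 894 and 2719 normalized counts (lowest, median and highest), against 6.66, 13.5 and 400.1 in naive libraries. In horses 1 to 6 in turn the licensed values were 2719, 708, 2227, 671, 1057 and 731 normalized counts, and the naive values were 400.1, 15.0, 11.6, 6.66, 13.5 and 13.4. The licensed values of horses 1 and 3 were above those of the other horses, the naive value of horse 1 was far above every other naive value, and even that value was below the lowest licensed one. TNFAIP3 rose by a log2 fold change of 5.67 ± 0.81 (SE, limma, adjusted p = 3.18e-05). The ratio of mean levels, licensed over naive, was 17.6, and it was 89.6 without horse 1, whose naive library made most of the naive mean. The fold within a horse was 6.80 in horse 1, 191.6 in horse 3, and 47.2 to 100.7 in the other 4 horses.

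TNIP3 (ENSECAG00000010953) encodes a ubiquitin-binding partner of the TNFAIP3 protein. It had 17.1, 23.8 and 61.6 normalized counts (lowest, median and highest) in licensed libraries, against 0, 1.06 and 14.8 in naive libraries. These rest on 20 to 61 reads in licensed and 0 to 14 reads in naive libraries, with 0 in the naive library of horse 3, so counting error alone is large. Highest in both conditions was horse 1, and the groups did not overlap. TNIP3 rose by 3.37 ± 0.58 on the log2 scale (SE, limma, adjusted p = 1.42e-04). Its ratio of means was 8.97 with all horses and 22.3 without horse 1. For so low a gene the log2 fold change depends on the 1 added to each value before the logarithm. With 0.5 or 5 added it was 3.76 or 2.15. The authors' deposited log2 fold change was 3.17.

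ZC3H12A and IER3 rose by close amounts. ZC3H12A (ENSECAG00000009562) encodes a ribonuclease that degrades mRNAs of cytokines such as IL6. Licensed libraries held 1233, 1597 and 2949 normalized counts of it (lowest, median and highest), against 136, 171 and 369 in naive libraries. All licensed values were above all naive values, and horse 1 was highest in each condition. The log2 fold change was 3.30 ± 0.28 (SE, limma, adjusted p = 7.13e-07). In 5 of the 6 horses the licensed minus naive difference lay between 2.99 and 3.29 on the log2 scale, and in horse 3 it was 4.06.

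IER3 (ENSECAG00000017157) encodes a short-lived stress-induced protein that acts on cell survival and on MAP kinase and NF-κB signalling. It had 11623, 14435 and 37926 normalized counts (lowest, median and highest) in licensed libraries, against 1263, 1712 and 3910 in naive libraries. The groups were well apart, and horse 1 was again highest in both. Its log2 fold change of 3.27 ± 0.32 (SE, limma, adjusted p = 1.71e-06) was made of differences of 2.80 to 3.35 in 5 horses and 4.27 in horse 3. Horse 1 was high in licensed and naive cells by near amounts, 2.68 and 2.35 times the median of the other 5 horses, so its own response, 3.28, lay among those of the others.

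NFKBIZ and BCL3 encode IκB proteins that work in the nucleus, where they bind NF-κB dimers on DNA and change which genes are transcribed. NFKBIZ (ENSECAG00000011496), needed for a set of secondary response genes that includes IL6, had 800, 974 and 1622 normalized counts (lowest, median and highest) in licensed libraries, against 229, 328 and 1075 in naive libraries. Its naive value in horse 1, 1075 normalized counts, was above 4 of the 6 licensed values, and the other 5 naive values, 229 to 347, were below all licensed values. NFKBIZ rose by 1.53 ± 0.33 on the log2 scale (SE, limma, adjusted p = 6.91e-04). In horse 1 the difference was 0.36, a fold of 1.28, while the other 5 horses had differences of 1.47 to 2.48. Without horse 1 the log2 fold change was 1.77.

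BCL3 (ENSECAG00000013124), which joins DNA-bound dimers of the NF-κB subunits NFKB1 and NFKB2, had the lowest coefficient of variation of the 8 over the 6 horses in each condition. It had 897, 989.6 and 1321 normalized counts (lowest, median and highest) in licensed libraries, against 338, 392 and 503 in naive libraries. The coefficient of variation was 15.5% in licensed and 16.1% in naive libraries, beside 66.0% and 207% for TNFAIP3. Without horse 1 it was 8.70% and 14.0% for BCL3, beside 61.2% and 26.9% for TNFAIP3, and ZC3H12A was then lower than BCL3 in naive libraries, at 11.6%. BCL3 rose by 1.33 ± 0.16 on the log2 scale (SE, limma, adjusted p = 6.86e-06), and the difference in single horses ran from 1.18 to 1.59.

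REL (ENSECAG00000003277) encodes a subunit of NF-κB itself, which carries a transactivation domain. It had 316, 411 and 555 normalized counts (lowest, median and highest) in licensed libraries, against 120.0, 206 and 254 in naive libraries. The groups did not overlap, but the margin was narrow. REL rose by 1.06 ± 0.21 on the log2 scale (SE, limma, adjusted p = 4.24e-04), the smallest change of the 8. Horses 4 and 6 had differences of 1.81 and 1.47, and the other 4 horses had 0.69 to 0.90, below 2-fold. Without horse 4 or without horse 6 the log2 fold change was 0.91 or 0.98 and no longer passed the 2-fold threshold, with adjusted p = 0.00210 and 0.00254, and with TMM factors computed on the listed genes it was 0.82. Horse 1 did not stand out in REL, with ranks of 5 of 6 in licensed and 3 of 6 in naive libraries. For MAP3K8 too horse 1 was not the highest, with a rank of 2 of 6 in each condition.

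MAP3K8 (ENSECAG00000000090) encodes the kinase that links IL-1, TNF and Toll-like receptors to the ERK branch of the MAP kinases and that is held inactive by the NFKB1 precursor. Licensed libraries had 56.7, 129 and 214 normalized counts of it (lowest, median and highest), against 17.1, 33.4 and 58.2 in naive libraries. The licensed value of horse 2, 56.7, lay just under the naive value of horse 5, 58.2, and the other 5 licensed values were above all naive values. MAP3K8 rose by 1.73 ± 0.40 on the log2 scale (SE, limma, adjusted p = 0.00112), with 1.24 to 2.51 in single horses. Horses 2 and 6 were lowest in licensed and in naive libraries, below the other 4 horses in each condition.

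The regulators differed in how strongly they responded. By mean licensed minus naive difference over the 6 horses on the log2(normalized count + 1) scale, TNFAIP3 was at 5.67 ± 1.59, TNIP3 at 3.37 ± 1.08, ZC3H12A at 3.30 ± 0.38, IER3 at 3.27 ± 0.54, MAP3K8 at 1.73 ± 0.45, NFKBIZ at 1.53 ± 0.69, BCL3 at 1.33 ± 0.15 and REL at 1.06 ± 0.47 (SD, n = 6). All 28 pairs were compared within horses with an exact two-sided sign-flip permutation test, for which 6 horses allow no p below 0.03125. That smallest p was reached by 18 pairs, with adjusted p = 0.0486 over the 28. TNIP3, ZC3H12A and IER3 each responded more than MAP3K8, NFKBIZ, BCL3 and REL in 6 of 6 horses, by means of 1.53 to 2.31. TNFAIP3 exceeded those same 4 genes and TNIP3 in 6 of 6 horses. It exceeded ZC3H12A by 2.36 ± 1.33 and IER3 by 2.40 ± 1.49 (SD, n = 6) in 5 of 6 horses, the exception being horse 1, and these missed the threshold (exact permutation test, adjusted p = 0.0833 each).

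Among TNIP3, ZC3H12A and IER3, and among MAP3K8, NFKBIZ, BCL3 and REL, no pair passed the test apart from MAP3K8 over BCL3. ZC3H12A and IER3 were 0.04 ± 0.31 apart (SD, n = 6, exact permutation test, adjusted p = 0.810), with values from -0.28 to 0.48 in single horses. TNIP3 was 0.07 ± 0.80 above ZC3H12A and MAP3K8 was 0.20 ± 0.60 above NFKBIZ (SD, n = 6). Neither order was stable: with 5 added to each value TNIP3 was below ZC3H12A and IER3, at 2.15 against 3.28 and 3.26, and without horse 1 MAP3K8 minus NFKBIZ was -0.01. NFKBIZ and BCL3 were 0.21 ± 0.76 apart and BCL3 and REL 0.26 ± 0.37 (SD, n = 6). MAP3K8 over BCL3 was 0.41 ± 0.47, above 0 in 6 of 6 horses. The calls sit at the limit of the design: with 5 added to each value 17 pairs had the smallest p, the smallest adjusted p was 0.0515 and 0 pairs passed.

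**Figure D2:**
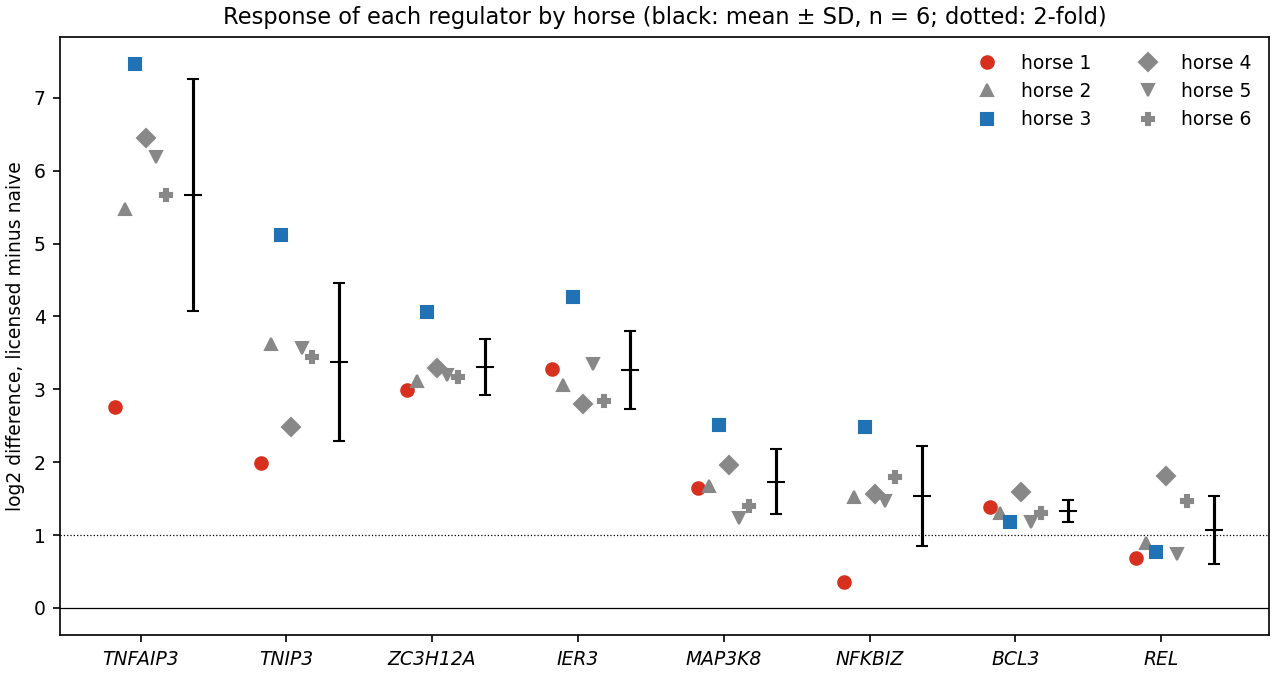
Licensed minus naive difference of log2(normalized count + 1) for each regulator and horse, ordered by mean, with mean ± SD (n = 6) in black and a dotted line at 2-fold. Horse 3 (blue) has the largest difference for 6 of the 8 genes, and horse 1 (red) has the smallest for 5.

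Horses differed in the size of the response. Horse 3 had the largest difference of the 6 horses for TNFAIP3, TNIP3, ZC3H12A, IER3, MAP3K8 and NFKBIZ, 6 of the 8, and had the largest for 26.0% of the genes listed as higher. For BCL3 it had the smallest, 1.18. Horse 1 had the smallest difference for 5 of the 8 regulators, TNFAIP3, TNIP3, NFKBIZ, ZC3H12A and REL, and for 21.2% of the genes listed as higher. Over the genes listed as higher, horse 1 more often had the largest difference than the smallest, at 32.2%, which it had for 0 of the 8 regulators. Horse 4 had the largest difference for BCL3 and REL. The median difference over the 8 regulators was 1.81 in horse 1, 3.28 in horse 3 and 2.22 to 2.37 in the other 4 horses. Over the 670 genes it was 1.77 in horse 1, 1.68 in horse 3 and 1.53 to 1.63 in the other 4 horses.

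For TNFAIP3, TNIP3, NFKBIZ and ZC3H12A, the small difference of horse 1 stood beside licensed and naive levels that were both above the median of the other horses. In licensed cultures horse 1 had 3.72 times the median of the other 5 for TNFAIP3, 2.67 for TNIP3, 1.96 for ZC3H12A, 1.45 for NFKBIZ, 1.37 for BCL3 and 1.34 for MAP3K8, but 0.807 for REL. It was the highest library for 5 of 8 regulators in licensed and 6 of 8 in naive cultures, beside 37.9% and 31.9% of the genes listed as higher. In licensed cultures horse 3 was about as high over the 8. Its median log2 distance from the median of the other horses was 0.78, against 0.76 for horse 1. In naive cultures these distances were -0.11 for horse 3 and 1.18 for horse 1.

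The naive TNFAIP3 level of horse 1 was 29.8 times the median of the other 5 naive libraries, TNIP3 14.3 times, NFKBIZ 3.43 times, IER3 2.35 times and ZC3H12A 2.18 times. For MAP3K8, BCL3 and REL the factors were 1.69, 1.29 and 1.06. On the log2 scale, the naive library of horse 1 lay 84.7% of the way from the other naive to the other licensed medians for TNFAIP3, 82.9% for TNIP3 and 111% for NFKBIZ. It lay at 39.9% for IER3, 37.8% for MAP3K8, 35.6% for ZC3H12A, 28.4% for BCL3 and 7.99% for REL. Over the 670 genes listed as higher the median position was 4.26%. The cause of the distance of horse 1 from the others was not tested.

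**Figure D3:**
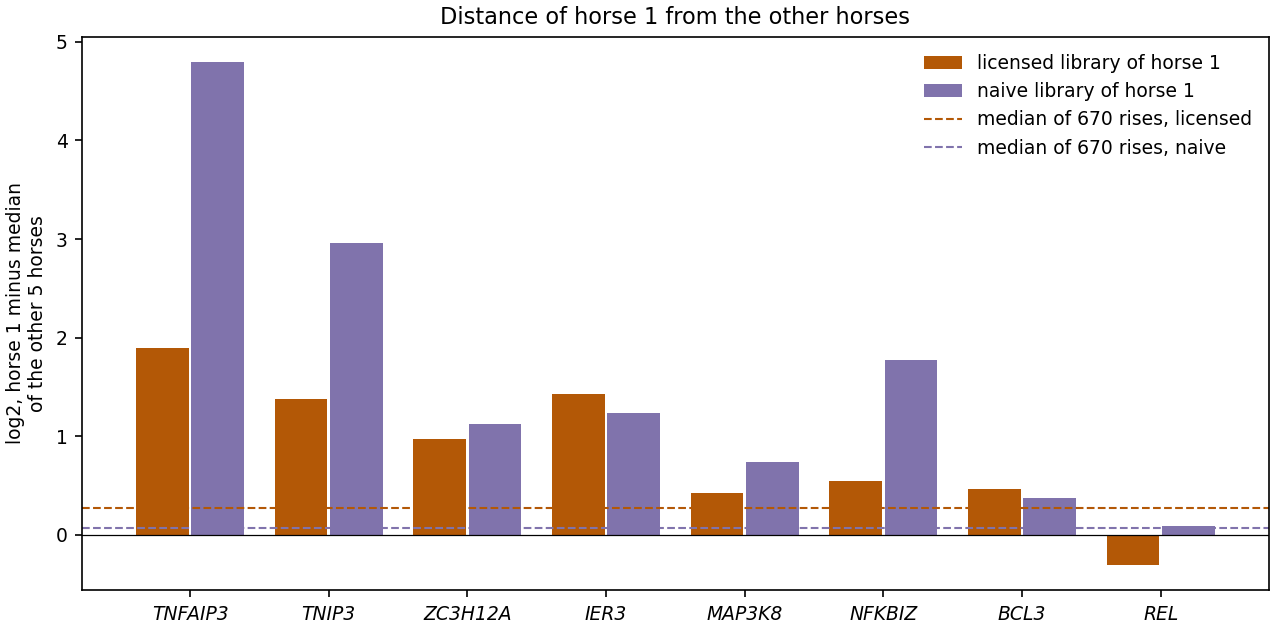
Log2 distance of the licensed (brown) and naive (purple) library of horse 1 from the median of the other 5 horses, per regulator, with dashed lines for the median over the 670 genes listed as higher. TNFAIP3, TNIP3 and NFKBIZ stand 4.80, 2.96 and 1.78 above in naive cultures, against medians over the 670 genes of 0.27 in licensed and 0.06 in naive cultures.

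By limma all 8 regulators passed an adjusted p of 0.05 and 2-fold as higher, as did 649 of the 1341 listed genes (48.4%). Without horse 1 all 8 passed again, beside 599 genes (44.7%). The authors listed only 670 genes as higher, so passing was usual among such genes and does not set the 8 apart. The coefficient of variation in naive libraries without horse 1 was 26.9% for TNFAIP3, against 207% with all horses, 73.3% for TNIP3, against 168%, 15.7% for NFKBIZ, against 73.4%, 11.6% for ZC3H12A, against 43.7%, and 16.6% for IER3, against 49.2%. It was 14.0% for BCL3, against 16.1%, and for REL and MAP3K8 it was higher without horse 1, at 27.2% and 49.2%, against 24.2% and 45.2%. Levels of NFKBIZ no longer overlapped between conditions, and those of MAP3K8 still did. The limma log2 fold changes without horse 1 were 6.25 for TNFAIP3, 3.65 for TNIP3, 3.37 for ZC3H12A, 3.26 for IER3, 1.77 for NFKBIZ, 1.75 for MAP3K8, 1.31 for BCL3 and 1.14 for REL.

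Deviations from the group mean showed which regulators varied together between horses. Correlations here are descriptions with no test, over 12 libraries that share horses, and Pearson's r is given with and without horse 1, because that horse stands apart. NFKBIZ and ZC3H12A had r = 0.92 over 12 libraries and 0.93 over the 10 libraries of the other horses. TNFAIP3 and ZC3H12A had 0.89 and 0.83. TNFAIP3 and TNIP3 had 0.87 over 12 libraries and 0.17 over 10, and TNIP3 had 0 to 2 reads in the naive libraries of those 5 horses. REL had r between -0.23 and 0.19 with the other 7 regulators over 12 libraries, and between -0.61 and 0.37 over 10. MAP3K8 had its highest r with ZC3H12A, 0.71 and 0.72.

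**Figure D4:**
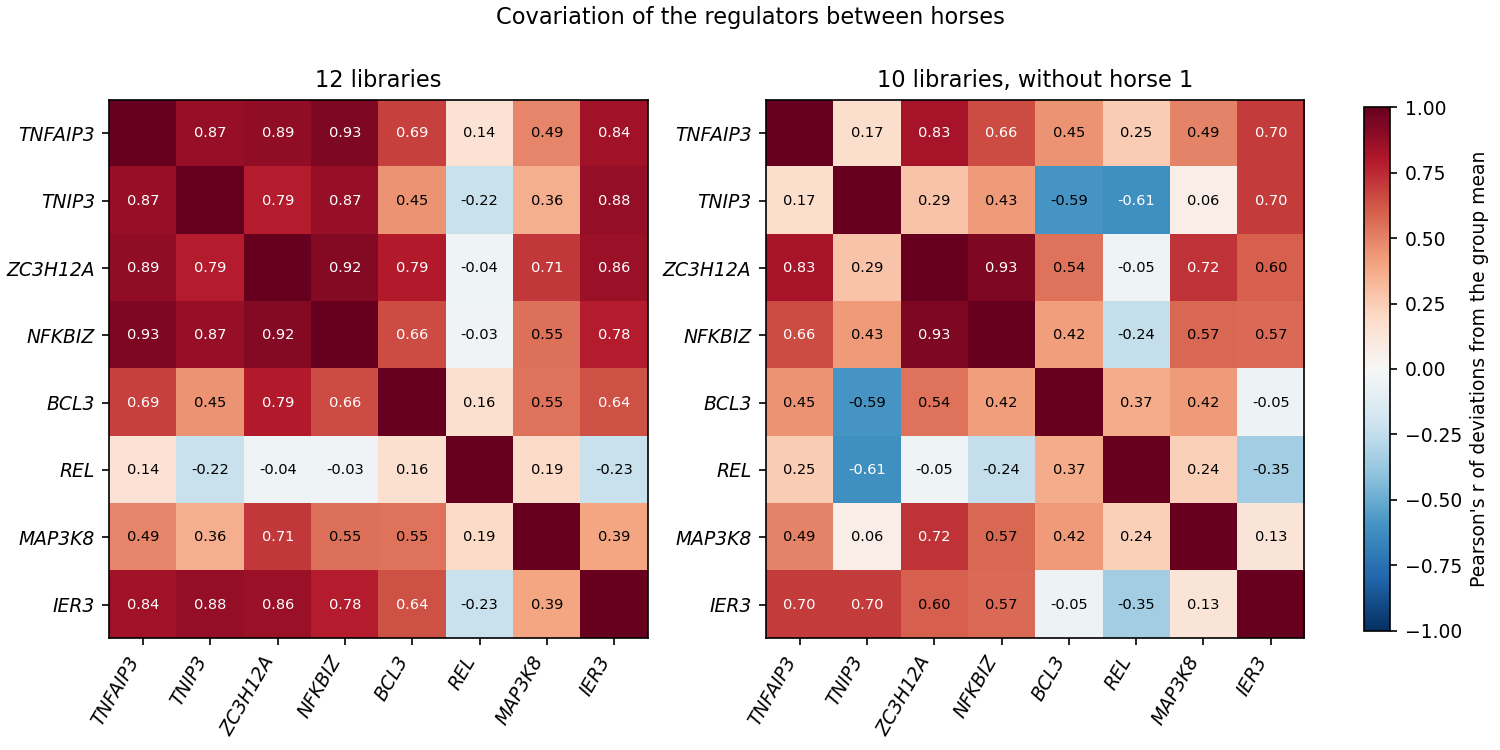
Pearson's r between regulators of their deviations from the mean of the licensed or the naive libraries, on the log2(normalized count + 1) scale, over 12 libraries (left) and over 10 without horse 1 (right). REL lies between -0.23 and 0.19 with the others on the left and between -0.61 and 0.37 on the right, and TNIP3 with TNFAIP3 is at 0.87 on the left and 0.17 on the right.

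The 3 listed genes whose deviations were most like those of each regulator were taken from 1125 other genes with a symbol. For TNFAIP3 they were SOD2, GCH1 and CXCL8 (r = 0.98, 0.94 and 0.93 over 12 libraries, and 0.85, 0.70 and 0.64 without horse 1). For TNIP3 they were TGM2, SLC11A2 and AK4, for NFKBIZ SOD2, MIP-2BETA and IFNAR2, and for ZC3H12A IL6, SOCS3 and ERN1. For IER3 they were ADAMTS5, PTGS2 and SLC11A2, for BCL3 EXD2, GALNT16 and NOTCH1, for REL SH2D5, CDCP1 and DUSP9, and for MAP3K8 DSP, EXT1 and BACE2. Over the 24 names r was 0.77 to 0.98. When the 3 nearest genes were chosen again without horse 1, 4 of the 24 were the same: AK4 for TNIP3, EXD2 for BCL3, BACE2 for MAP3K8 and ADAMTS5 for IER3. Most of the names that changed stayed near the top, at rank 15 or better for their regulator. GCH1 and CXCL8, for TNFAIP3, fell to ranks 47 and 65. The choice was not repeated without any other horse, so the turnover cannot be laid to horse 1 in particular.

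Around the 8 regulators, 146 further genes of the pathway were looked up in 6 lists, and 22 were in the table, 18 as higher and 4 as lower. Of the 13183 genes implied to have been tested, 10.2% were listed, and how many of the 146 were tested is unknown. Genes were matched by exact symbol, so a gene listed under another name would be missed, and 208 of the 1341 listed genes had an Ensembl ID only. The counts for the 6 lists are therefore lower bounds. Their median limma log2 fold change was 1.64. For all 1341 listed genes it was -0.79, but 670 of them were listed as higher and none had a deposited change within 2-fold. That median therefore lies between the rises and the falls and describes no typical gene. By limma 21 of the 22 passed, beside 95.2% of all listed genes, and IL1R1 missed the 2-fold threshold (log2 fold change 0.997, adjusted p = 0.00150).

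Of 8 other NF-κB subunits and IκB proteins 1 was listed, RELB, the partner of NFKB2, which rose by 1.56 ± 0.31 on the log2 scale (SE, limma, adjusted p = 4.41e-04). RELB had 382, 541 and 718 normalized counts (lowest, median and highest) in licensed libraries, against 114, 157 and 502 in naive libraries. As for NFKBIZ, the groups overlapped because of the naive library of horse 1, the other 5 being at 183 or less. Of 26 receptors and adaptors 3 were listed, all as higher. IRAK3, a brake on IL-1 receptor signalling, rose by 1.26 ± 0.34 and TRAF3, an adaptor that holds back the non-canonical pathway, by 1.40 ± 0.15 on the log2 scale (SE, limma). IL1R1, the IL-1 receptor, had 684, 857 and 1668 normalized counts in licensed libraries (lowest, median and highest), against 380.0, 413 and 739 in naive libraries. IL1R1 was not high in naive cells of horse 1, at 391 normalized counts.

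Of 12 kinases of the pathway 1 was listed, as lower: MAP3K14, the kinase that starts the non-canonical pathway, with 82.8, 113 and 155 normalized counts (lowest, median and highest) in licensed libraries, against 207, 254 and 328 in naive libraries. It fell by 1.13 on the log2 scale (SE 0.20, limma, adjusted p = 1.44e-04), opposite to MAP3K8. Of 32 MAP kinase genes and their feedback genes 2 were listed, both as lower and without overlap. MAP2K6, an activator of p38 kinases, fell by 1.88 (SE 0.40, limma) and the p38 gene MAPK11 fell by 1.11 (SE 0.20, limma) on the log2 scale. Of 29 ubiquitin editors and other brakes 3 were listed. SOCS3, an inhibitor of cytokine receptor signalling, rose by 1.41 ± 0.25, and ZC3H12C, of the same ribonuclease family as ZC3H12A, rose by 1.02 ± 0.18 on the log2 scale (SE, limma). ZFP36L2, which promotes decay of AU-rich mRNAs, fell by 1.97 (SE 0.18, limma, adjusted p = 9.57e-07), with 542 normalized counts in the median licensed and 2212 in the median naive library.

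Of 39 classic NF-κB target genes 12 were listed, all as higher. The list was chosen with earlier results of these data known, so its direction is a description. IL6 rose by 6.24 ± 0.79, CXCL8 by 5.94 ± 0.69, NOS2 by 5.15 ± 0.92, CXCL6 by 5.03 ± 0.29, PTGS2 by 4.75 ± 0.60, LIF by 4.27 ± 0.52, CSF3 by 3.81 ± 0.84 and SOD2 by 3.75 ± 0.70 on the log2 scale (SE, limma). The changes of TNFAIP6, SLC39A14, GCH1 and PLAU were 1.12 to 2.76, and without horse 1 that of PLAU was 0.93 and no longer passed the 2-fold threshold. Licensed and naive values overlapped for SOD2, NOS2, TNFAIP6 and GCH1, and also for RELB, IRAK3 and IL1R1. The other pathway genes listed as higher, 11 of 18, did not overlap, beside 64.9% of all genes listed as higher. For SOD2 the naive library of horse 1 had 38513 normalized counts, above the lowest licensed value of 23259. Its deposited log2 fold change was 2.64. Horse 1 had the highest naive value for 14 of the 18 pathway genes listed as higher, beside 31.9% of all genes listed as higher. The exceptions were IL1R1, CXCL6, CSF3 and TNFAIP6. CXCL6, a neutrophil chemokine, had 882 normalized counts in the naive library of horse 1, within the 455 to 1471 of the other 5, while CXCL8, a chemokine of the same class, had 188 against 7.75 to 18.7.

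**Figure D5:**
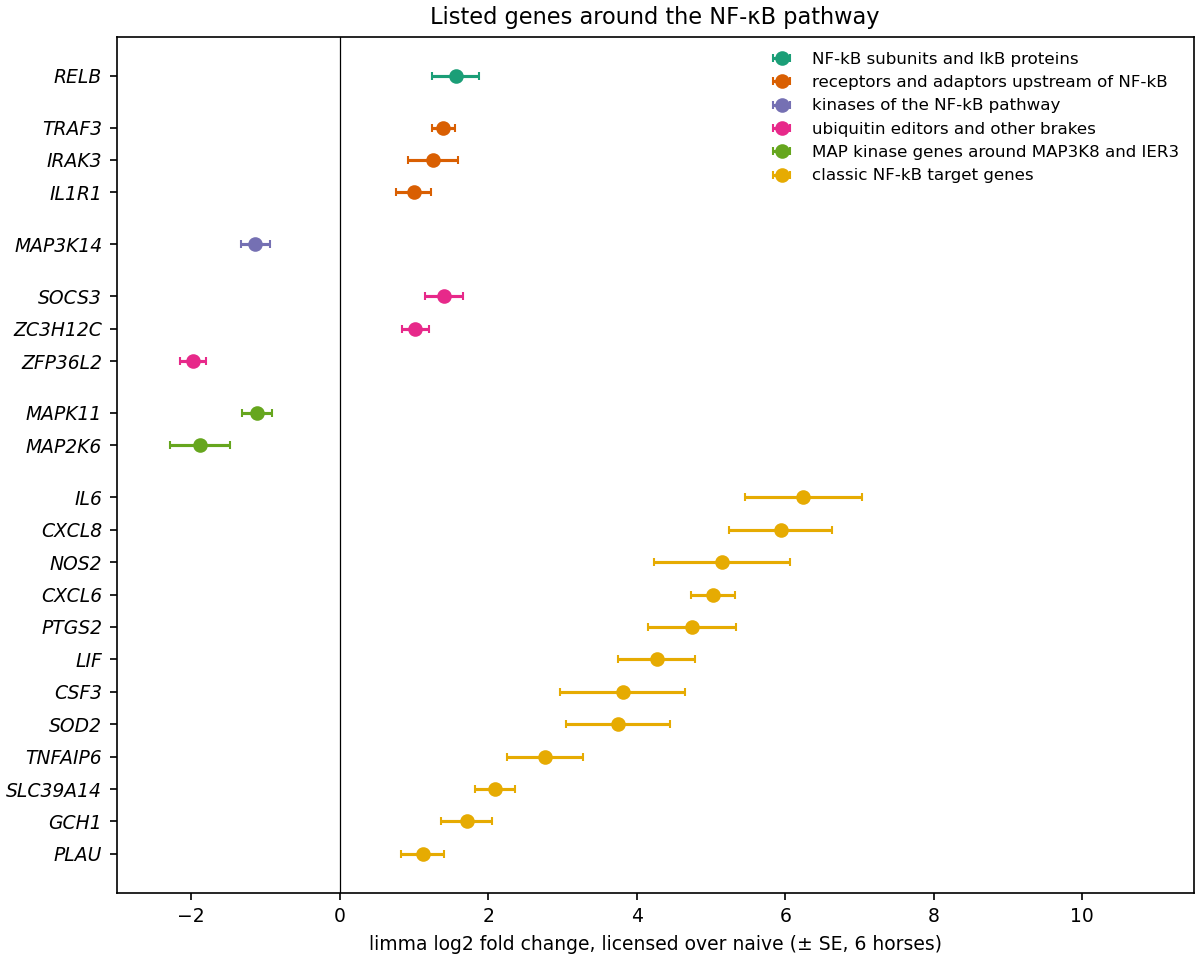
Limma log2 fold change, licensed over naive, with SE (6 horses), of the 22 pathway genes in the table, coloured by list. The 18 genes right of 0 reach 6.24 for IL6, and MAP3K14, ZFP36L2, MAPK11 and MAP2K6 lie left of 0.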

How the data were processed

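Per the labels' protocols, the RNeasy Mini kit was used to extract RNA, which was polyA-selected. Per the submitters' processing notes, reads were handled with Trimmomatic 0.36, STAR 2.5.2b, featureCounts of Subread 1.5.2 and DESeq2. The sources used here name no genome build, annotation or use of strand, so reads from a gene and an antisense partner cannot be separated. The signal columns deposited by the authors hold read counts after division by a size factor, 1 for each library. The log2 fold change of licensed over naive and its p-value, raw and adjusted, are the authors' own, as deposited, and the table lists only genes past adjusted p 0.05 and 2-fold. Refitting with DESeq2 1.42.0 and no horse term left 0 genes more than 0.01 from the deposited log2 fold change.

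In every library 100% of values were whole multiples of 1 step within 0.01 reads. The step of 1.00972 in licensed horse 1 could be mistaken for rounding, so the count test was also run without that horse. edgeR 4.0.16 on the recovered reads called 1340 of the 1341 genes, and 1257 without horse 1.

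Errors and comparisons come from limma 3.58.1 (R 4.3.3, trend and robust) on log2(normalized count + 1) over 12 libraries, with Benjamini-Hochberg adjustment over 1341 genes. The fit had no horse term, so the SEs and adjusted p-values quoted per gene leave the pairing out. It called 1276 genes, 95.2%, which repeats the authors' selection and is not independent evidence. With the horse as a block, limma gave MAP3K8 an adjusted p of 1.91e-05, against 0.00112, and REL 2.15e-04, against 4.24e-04. The scripts were tested on simulated data. The numbering pairs the samples, since same-numbered libraries come from the same horse: licensed and naive deviations of 1 horse correlated at 0.48 to 0.63 across genes, and at most 0.14 between horses. Whether cultures of 1 horse were repeated is not stated. With 1 library per horse and condition, the spread behind the p-values mixes horses, cultures and libraries, which cannot be told apart.

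Members, gene lists and tests were chosen with earlier results of these data known. Named were all members, every listed gene of the 6 pathway lists and the 3 genes most like each member. A further gene was left out of these lists and is not reported here. No reference sequence was used.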

Additional observations from a re-analysis of the deposited data

Results flagged for a closer look

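In 24 sets of 6 values (licensed levels, naive levels and log2 differences of each regulator), 8 values lay far from the rest by Dixon's criterion. For normally distributed values chance gives about 1 in 20 sets. Levels were taken as normalized counts and not on the log2 scale, so skew can add to their flags and that rate need not hold. Horse 1 gave 6 of the 8. These were its licensed level of TNIP3 (61.6 normalized counts, next 33.7), where the gap barely passed the limit, and its naive levels of TNFAIP3 (400.1 normalized counts, next highest 15.0), TNIP3 (14.8, next 2.22), NFKBIZ (1075, next 347), ZC3H12A (369, next 184) and IER3 (3910, next 1902). Horse 3 gave the other 2, the log2 differences, licensed minus naive, of ZC3H12A (4.06, next 3.29) and IER3 (4.27, next 3.35). The regulators are not independent of each other within a horse, so these are values of 2 horses. Their cause was not tested.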

How the results depend on the processing

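Of the 8 regulators, 8 passed limma's thresholds, with the horse as a block too (8), and 7 to 8 with each horse left out. REL was the one lost, without horse 4 or 6, and also with TMM factors computed on the listed genes (log2 fold change 0.82), a scaling that moved the median of all listed genes to -1.03, against -0.79. With genes averaging under 50 normalized counts removed, TNIP3 was not tested. All 8 kept their direction in each alternative that gave them a value. The count over all listed genes was 1276, 1193 to 1226 with a horse left out, 1133 with TMM, 917 with the filter and 1296 with the block, which changed no call of a regulator. For TNFAIP3 the log2 fold change was 4.14 with edgeR and DESeq2, which follow group means, and 6.47 with edgeR without horse 1. The number of pairs of regulators that differed was 18, 18 with 0.5 added and 0 with 5 added, where 2 mean differences turned sign. With 5 horses the smallest possible p is 0.0625, so that test was not counted with a horse left out, where 0 to 3 of the 28 mean differences turned sign. The edgeR fits without horse 1 or with a block, and the block without horse 1, were added after seeing the data. Reads of TNIP3 limit its fold changes.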
